A study of Mus musculus with 8 samples.

Results

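The genes described here build the sarcomere, the contractile unit of heart muscle, and the Z-disc that anchors its filaments. The 31 genes were listed by symbol and ordered by their place in the unit: thick filament, thin filament, M-band, Z-disc, and the desmin filaments and chaperone around the Z-disc. A gene was measured where a probe's RefSeq accession matched its symbol, which gave 25 of the 31 genes among 8875 named genes tested. Ttn, Nebl, Lmod2, Flnc, Myot and Smpx were matched to no probe and were not analysed here. All 25 measured genes lay above background on all 8 arrays, so the filter on dim probes removed none of them.

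The series measured messenger RNA in mouse hearts after lipopolysaccharide (LPS), a component of the outer membrane of Gram-negative bacteria that sets off systemic inflammation. The LPS group was 4 female C57BL/6 mice aged 12 weeks that were injected into the peritoneum with 5 mg/kg LPS, and the saline group was 4 mice of the same strain, sex and age given saline. Hearts were flushed with buffered saline 8 h after the injection, and pieces of each heart gave the RNA for 1 spotted oligonucleotide array per mouse. The labels do not say which pieces of the heart were taken, and they name no engineered allele.

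In the sarcomere, myosin heads of the thick filament pull on actin of the thin filament when calcium binds troponin. Titin spans the unit, myomesins tie the thick filaments at the M-band, and alpha-actinin cross-links actin at the Z-disc, where LIM-domain and PDZ-domain proteins also bind signalling enzymes. Desmin filaments link neighbouring Z-discs to each other and to the cell membrane. These genes are among the most strongly expressed of a cardiomyocyte, and weaker contraction of the heart is a known feature of sepsis.

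Of the 25 genes, 24 had a negative log2 change of LPS minus saline, although small changes turned positive under other scalings: Actn2, Myl2 and Tnnc1 with cyclic loess, and Actn2 and Tnnc1 with median scaling over the tested probes. Among all named genes 56.4% were negative. Fhl2, Cryab and Pdlim5 passed the threshold as lower (limma, Benjamini-Hochberg adjusted p under 0.05), and no gene passed as higher. The background was 9.77% of all named genes called lower and 9.74% called higher, and 3 of 25 is near that background. At an unadjusted p under 0.05, 12 of the 25 were lower, against a background of 18.9%, and 0 were higher, against 14.7%. The median change of the 25 genes was -0.42, beside -0.05 for all named genes and -0.10 for the 888 named genes with the brightest probes. Changes reached -0.5 or lower in 10 genes, against 12.3% of all named genes, and -1 or lower in 1, against 2.11%. The 95% interval of the change spanned 0 in 13, against 66.4% of all named genes. In bulk tissue such as this, fewer cells of a type and less RNA per cell cannot be told apart.

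The shift was unequal between arrays. Taken against the mean of the saline arrays, the median of the 25 genes was -0.21, -0.53, -0.27 and -0.50 on LPS arrays 1 to 4, against 0.24, -0.05, -0.07 and -0.02 on saline arrays 1 to 4. LPS 2 and LPS 4 were therefore the lowest arrays, and saline 1 stood above the other saline arrays. The scan names of LPS 2, LPS 4, saline 2 and saline 4 carry a redip mark, whose meaning is not given. The lowest LPS arrays were thus those with the mark, so mouse and mark cannot be told apart there. The median change of the 25 genes was -0.53 among the arrays with the mark and -0.40 among those without it. With the mark as a block it was -0.42. On LPS 1 to 4, 18, 24, 19 and 25 of the 25 genes lay below the saline mean, and on saline 1 to 4, 6, 16, 15 and 13. Saline 1 was the highest of the 8 arrays for 13 genes. All 4 LPS arrays lay below all 4 saline arrays for 5 genes, Myh6, Myl2, Mybpc3, Des and Pdlim5, against a background of 12.3% of named genes, and none showed the reverse, against 11.2%.

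**Figure D1:**
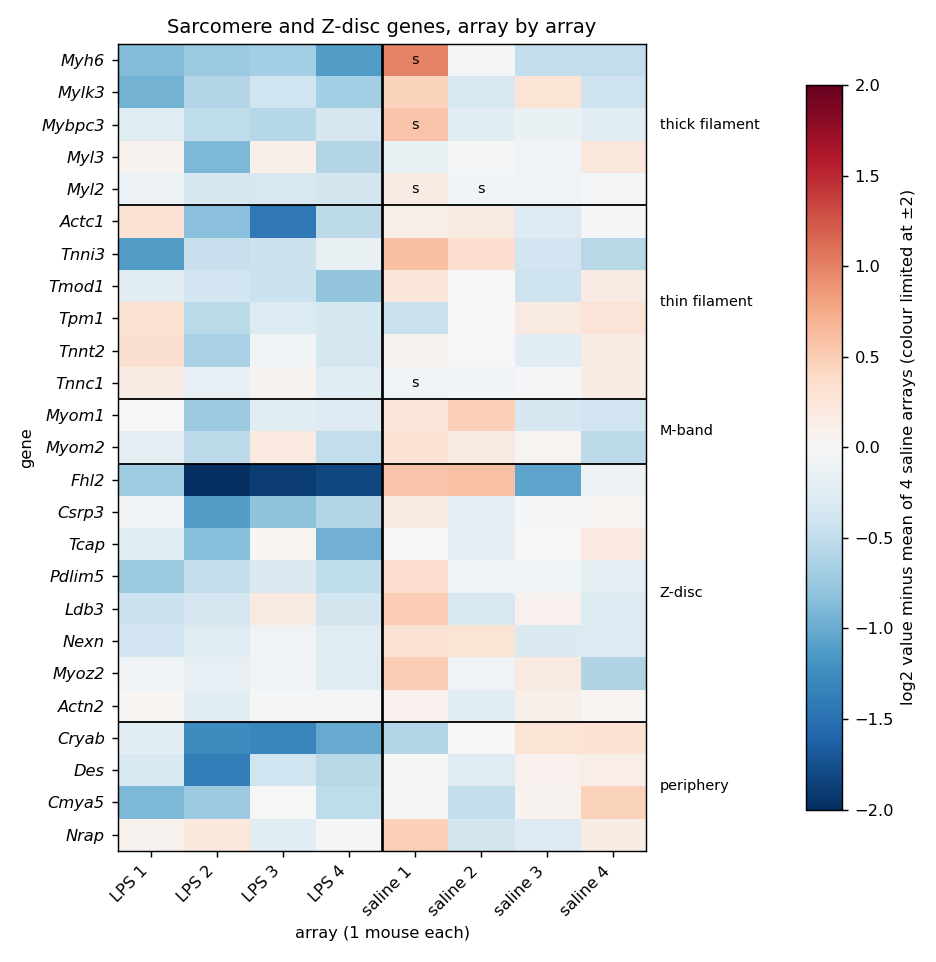
Heat map of the 25 measured genes (rows, grouped by place in the sarcomere) on the 8 arrays (columns, LPS left of saline, 1 mouse each). Colour gives the log2 value minus the mean of the 4 saline arrays, limited at 2 either way, and the letter s marks a saturated spot. The LPS columns are mostly blue, with medians of -0.21 to -0.53, and Fhl2 is the darkest row on LPS 2, LPS 3 and LPS 4.

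Several properties of the arrays moved with the group. The slide numbers in the scan names fell into 2 runs, called slide series here. LPS 2, LPS 3 and LPS 4 lay in the first series, and LPS 1 and all saline arrays in the second, so only LPS 1 can be set against saline within a series. With slide series as a block the median of the 25 genes was -0.21 and 0 were called, beside 3.03% of all named genes called lower. The changes of Actc1, Actn2, Myl3, Tnnc1, Tnnt2 and Tpm1 turned positive under it. Saline 1 was scanned alone on its own day, so it carries no weight in the changes fitted with scan day as a block. The first scan day held LPS 2, LPS 3 and LPS 4, all of the first series, and saline 3 and saline 4, of the second. Within that day group and slide series therefore cannot be told apart. Gene probes above the limit set by negative controls made up 37.3% to 42.6% on LPS arrays, against 39.7% to 46.9% on saline arrays. Over all tested genes and unnamed probes, LPS 3 was the LPS array nearest the saline arrays. Its correlation with them was 0.94 to 0.96, against 0.90 to 0.92 for the other LPS arrays, and 0.96 to 0.97 with the other LPS arrays. The probes of the 25 genes were bright: 21 of the 25 lay among the 888 brightest of named genes, although a spot's brightness depends on the probe as well as on the transcript. A spot was saturated for 4 of the genes, all on saline arrays 1 or 2, against 0.248% of all named genes, and a saturated value is only a lower bound on the level there.

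The way a spot's pixels were summarised also mattered. A spot was summarised by its median pixel, and the mean pixel can lie above or below the median where signal is uneven within a spot. The median over the 25 genes of the mean-to-median pixel ratio was 0.93, 1.39, 1.20 and 1.34 on LPS arrays 1 to 4, against 0.90, 1.00, 1.17 and 1.04 on saline arrays 1 to 4. Over all tested genes it was 1.22 to 1.24 on the LPS arrays, against 1.11 to 1.20 on the saline arrays. With the mean pixel, 21 of the 25 changes were negative and their median was -0.15, and those of Actc1, Actn2 and Cryab turned positive. With the mean pixel and saturated medians left out, an alternative added after seeing the data, the median was -0.28 and 0 changes turned sign. What makes spots uneven was not tested.

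The fall of Fhl2 was the largest of the 25. Fhl2 encodes a LIM-only protein that binds titin near the Z-disc. It read 11.41, 9.92, 10.21 and 10.29 (normalised log2 intensity) on the LPS arrays, against 12.67, 12.70, 11.06 and 12.01 on the saline arrays. LPS 1 stood above the lowest saline array, saline 3, so the groups overlapped. The mean was 10.46 ± 0.65 in LPS hearts and 12.11 ± 0.77 in saline hearts (SD, n = 4 each). The log2 change was -1.65 with a standard error of 0.40 (limma adjusted p = 0.0179). With the mean pixel the change was -0.97 (adjusted p = 0.00310). The values were then 13.05, 12.31, 12.90 and 12.52 on the LPS arrays, against 13.76, 13.59, 13.51 and 13.81 on the saline arrays, with no overlap. The Fhl2 spot was uneven, with mean-to-median ratios of 3.13, 5.50, 6.62 and 5.46 on the LPS arrays and 1.93, 1.88, 5.15 and 3.68 on the saline arrays. The call held without LPS 1, LPS 3, saline 3 or saline 4. It ended when LPS 2, LPS 4, saline 1 or saline 2 was left out, with adjusted p between 0.0511 and 0.0580. With scan day as a block the change was -1.37 (adjusted p = 0.00889), and among the 5 arrays of the first scan day (LPS 2, LPS 3, LPS 4, saline 3 and saline 4) it was -1.39 (adjusted p = 0.0511). With the slide series as a block it was -0.70 (adjusted p = 0.477), a value that rests on LPS 1 alone in its arm.

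Fhl2 has 2 starts in the promoter table of RefSeq on GRCm38.p6, and both windows hold a CArG box, the site bound by serum response factor. They are printed because Fhl2 had the largest change, with the windows of cardiac actin (Actc1) and of the main cardiac myosin (Myh6) for comparison. Each runs from 250 bases before to 50 after the start, on the minus strand of the genome, with matches to the searched motifs in capitals:
Fhl2, first window: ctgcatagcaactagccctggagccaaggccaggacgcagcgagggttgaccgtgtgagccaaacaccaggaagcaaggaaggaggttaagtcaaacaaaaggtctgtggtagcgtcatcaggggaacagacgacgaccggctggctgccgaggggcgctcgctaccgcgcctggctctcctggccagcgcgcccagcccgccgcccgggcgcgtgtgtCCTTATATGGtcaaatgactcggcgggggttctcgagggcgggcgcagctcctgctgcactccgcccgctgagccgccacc
Fhl2, second window: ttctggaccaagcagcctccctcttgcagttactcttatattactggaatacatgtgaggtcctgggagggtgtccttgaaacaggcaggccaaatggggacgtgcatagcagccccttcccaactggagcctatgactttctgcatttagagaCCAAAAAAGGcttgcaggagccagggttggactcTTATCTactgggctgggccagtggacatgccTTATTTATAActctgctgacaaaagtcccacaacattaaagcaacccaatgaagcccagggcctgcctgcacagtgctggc
Actc1: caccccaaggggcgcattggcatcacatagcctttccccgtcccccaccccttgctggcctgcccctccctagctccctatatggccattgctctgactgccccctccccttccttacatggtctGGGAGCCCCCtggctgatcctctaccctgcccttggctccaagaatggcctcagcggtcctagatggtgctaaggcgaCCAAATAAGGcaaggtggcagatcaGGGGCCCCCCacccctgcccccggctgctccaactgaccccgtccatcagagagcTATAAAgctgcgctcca
Myh6: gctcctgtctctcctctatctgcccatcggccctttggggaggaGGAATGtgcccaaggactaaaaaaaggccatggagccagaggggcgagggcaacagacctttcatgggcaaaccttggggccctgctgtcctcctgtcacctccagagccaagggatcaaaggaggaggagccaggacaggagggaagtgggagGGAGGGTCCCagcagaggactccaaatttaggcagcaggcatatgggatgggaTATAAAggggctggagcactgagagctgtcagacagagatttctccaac
The windows lie at chr1:43163912-43164211 and chr1:43196712-43197011 for Fhl2, chr2:114052826-114053125 for Actc1 and chr14:54966558-54966857 for Myh6. The capitals mark CArG in both Fhl2 windows and in Actc1. In the second Fhl2 window they also mark a GATA match (the letters TTATCT are AGATAA on the other strand) and a MEF2 match that overlaps a TATAAA match read on the other strand. In Actc1 they also mark a pair of NF-kB matches and TATAAA. In Myh6 they mark a CATTCC match read on the other strand, an NF-kB match and TATAAA.

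The motifs were searched on both strands in the 37 starts listed for 26 of the 31 genes and in all 32851 starts of the table. Windows of a gene can overlap, so a site can be counted more than once, as for CArG and NF-kB in Ldb3 and CATTCC in Flnc. A CArG match, the named consensus, stood in 8 of the 37 starts (21.6%) and in 1.63% of all starts, in windows of Actc1, Fhl2, Ldb3, Myl3, Myom1 and Nebl. A MEF2 match, also by its named consensus, stood in 4 of 37 (10.8%) and in 3.19% of all. The NF-kB consensus stood in 10 of 37 and in 8.46% of all. The letters CATTCC, the M-CAT element bound by TEAD factors, stood in 11 of 37 (29.7%) and in 14.7% of all, and AGATAA, bound by GATA factors, in 9 of 37 (24.3%) and in 11.2% of all. The letters TATAAA, as in a TATA box, stood in 5 of 37 (13.5%), close to the 13.6% of all starts. Counted from the annotated start, they began at 33 in Actc1, 1 in Myh6, -28 in Fhl2 (other strand), -78 in Pdlim5 and -216 in Myl2. Genes with a CArG window ranged in log2 change from -1.65 (Fhl2) to -0.24 (Ldb3), with Actc1, Myl3 and Myom1 between. A match describes the letters of a window and shows neither binding nor a cause, and Cryab had no entry in the table.

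In the thick filament none of the 5 genes passed the threshold, all 5 changes were negative, and in 3 of them all LPS arrays lay below all saline arrays, beside the background of 12.3%. Myh6 encodes alpha-myosin heavy chain, the main motor of the adult mouse ventricle. It read 14.14, 14.27, 14.33 and 13.89 on the LPS arrays, against 16, 14.98, 14.52 and 14.52 on the saline arrays. Every LPS array was below every saline array, and the saline 1 spot was saturated. The log2 change was -0.85 with a standard error of 0.30 (limma adjusted p = 0.0731), and -0.56 with saturated spots left out (adjusted p = 0.0877). A second Myh6 probe was above background on 0 LPS arrays and 2 saline arrays and was not tested. With the level of the atrial markers as a covariate, an alternative added after seeing the data, the change was -0.95 and passed (adjusted p = 0.0449).

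Myl2, the ventricular regulatory light chain, read 15.60, 15.37, 15.40 and 15.35 on the LPS arrays, against 15.88, 15.66, 15.63 and 15.69 on the saline arrays. The groups were apart by little, and the spot was saturated on saline 1 and saline 2. The change was -0.28 with a standard error of 0.12 (limma adjusted p = 0.118), and -0.20 with saturated spots left out. Mybpc3, the cardiac myosin-binding protein that tunes cross-bridge speed, read 15.18, 14.92, 14.85 and 15.08 on the LPS arrays, against 16, 15.21, 15.30 and 15.20 on the saline arrays. The groups did not overlap, with LPS 1 just below saline 4 and the saturated saline 1 far above the rest. The change was -0.42 with a standard error of 0.19 (adjusted p = 0.152), and -0.31 without the saturated spot.

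Mylk3, the kinase that phosphorylates the cardiac regulatory light chain, read 8.42, 8.77, 8.97 and 8.69 on the LPS arrays, against 9.81, 9.04, 9.64 and 8.95 on the saline arrays. LPS 3 lay just above saline 4, and the other LPS arrays were below all saline arrays. Its change was -0.65 with a standard error of 0.21 (limma adjusted p = 0.0561), and with the mean pixel it was -0.66 and passed (adjusted p = 0.0314). Myl3, the ventricular essential light chain, ranged from 14.19 to 15.20 on the LPS arrays, against 14.95 to 15.32 on the saline arrays, a change of -0.33 (adjusted p = 0.337). Its LPS arrays split, with LPS 1 and LPS 3 at the saline level and LPS 2 and LPS 4 below it.

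In the thin filament 6 of 7 genes were measured, all 6 changes were negative and none passed. Actc1, cardiac alpha-actin, read 14.99, 13.85, 13.27 and 14.17 on the LPS arrays, against 14.82, 14.87, 14.43 and 14.65 on the saline arrays. On this, its brightest probe, LPS 1 was the highest of the 8 arrays, while the other LPS arrays were below all saline arrays. The change was -0.63 with a standard error of 0.30 (limma adjusted p = 0.182). With the mean pixel it was 0.03, and it stayed negative with saturated medians left out as well. Without LPS 1 the median-pixel change was -0.93 and passed (adjusted p = 0.0215). A second Actc1 probe gave -0.65, with LPS 1 also below all saline arrays. It read 13.65, 13.66, 13.30 and 13.86 on the LPS arrays, against 14.60, 13.98, 14.25 and 14.23 on the saline arrays. The mean of the probes gave -0.64 (adjusted p = 0.0509).

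Tnni3, the troponin subunit that blocks contraction at low calcium, read 13.09, 13.74, 13.78 and 14.05 on the LPS arrays, against 14.80, 14.53, 13.82 and 13.65 on the saline arrays. The saline arrays split, with saline 3 and saline 4 inside the LPS range. Its change was -0.54 with a standard error of 0.28 (limma adjusted p = 0.219). Tnnc1, the calcium-binding subunit, read 15.51, 15.21, 15.44 and 15.15 on the LPS arrays, against 15.31, 15.32, 15.35 and 15.51 on the saline arrays, with the saline 1 spot saturated. The groups covered the same range. The change was -0.04 (95% interval -0.32 to 0.23), and -0.14 with saturated spots left out.

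Tnnt2, the troponin subunit that holds the complex on tropomyosin, had a change of -0.18 (95% interval -0.62 to 0.25). Tpm1, the main cardiac tropomyosin, had a change of -0.21 (95% interval -0.67 to 0.25). With saturated spots of all genes left out, the change was -0.45 for Tnnt2 and, in the thick filament, -0.60 for Myl3, and neither passed. For Tnnt2 and Tpm1, LPS 1 was the highest of the 8 arrays and LPS 2 the lowest. Tmod1, which caps the pointed ends of thin filaments, ranged from 11.64 to 12.20 on the LPS arrays, against 12.01 to 12.66 on the saline arrays. Its change was -0.46 with a standard error of 0.17 (limma adjusted p = 0.0967), and with the mean pixel -0.42 (adjusted p = 0.0216).

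The myomesins Myom1 and Myom2, which tie thick filaments together at the M-band, had changes of -0.30 (95% interval -0.80 to 0.20) and -0.25 (95% interval -0.73 to 0.22). LPS 2 was the lowest of the 8 arrays for both. The LPS range lay within or across the saline range in both, and neither passed the threshold.

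**Figure D2:**
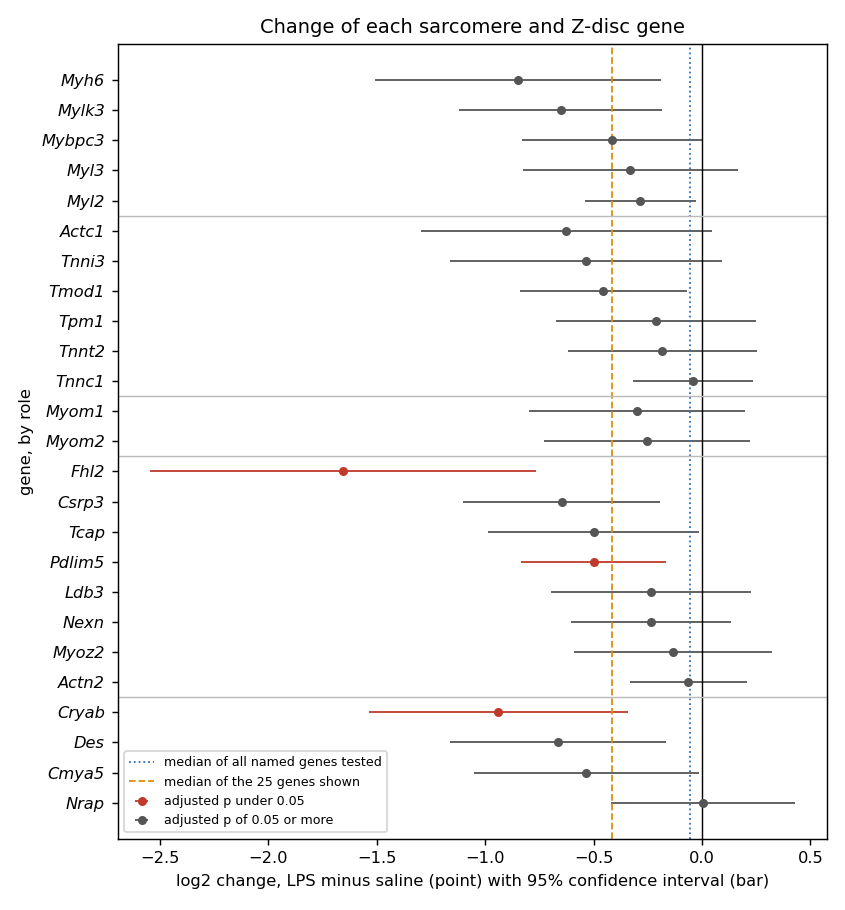
Log2 change of LPS minus saline (horizontal axis) for each of the 25 genes, grouped by place in the sarcomere, with 95% confidence intervals, n = 4 mice per group. Red points mark adjusted p under 0.05 (Fhl2, Cryab and Pdlim5), the dotted line the median of all named genes (-0.05) and the dashed line the median of the 25 genes (-0.42); 13 intervals span 0.

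At the Z-disc 8 of 11 genes were measured, all 8 changes were negative, and Fhl2 and Pdlim5 passed. Pdlim5 encodes a PDZ and LIM protein that brings protein kinase C to the Z-disc. Its brightest probe read 12.01, 12.28, 12.47 and 12.25 on the LPS arrays, against 13.08, 12.69, 12.67 and 12.56 on the saline arrays. The groups did not overlap, with LPS 3 just below saline 4. The mean was 12.25 ± 0.19 in LPS hearts and 12.75 ± 0.23 in saline hearts (SD, n = 4 each), a log2 change of -0.50 with a standard error of 0.15 (limma adjusted p = 0.0439). This value belongs to 1 of 6 Pdlim5 probes, which matched different RefSeq transcripts. The 4 other probes that could be tested gave 0.10, -0.18, 0.16 and 0.15, and the mean of the probes gave -0.05 (adjusted p = 0.866). With the mean pixel the change was -0.25 (adjusted p = 0.389). Leaving out any array but LPS 3 ended the call (adjusted p = 0.0508 to 0.104). The change was -0.40 with scan day as a block (adjusted p = 0.0841), -0.28 within the first scan day (adjusted p = 0.269) and -0.74 when blocked by slide series (adjusted p = 0.0808).

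Csrp3, the muscle LIM protein, a stretch-related partner of telethonin, read 13.42, 12.38, 12.69 and 12.91 on the LPS arrays, against 13.67, 13.30, 13.47 and 13.55 on the saline arrays. LPS 1 lay inside the saline range and the other LPS arrays below it. The change was -0.65 with a standard error of 0.20 (limma adjusted p = 0.0514), a second probe gave -0.16, and without LPS 1 the change was -0.84 and passed (adjusted p = 0.00987). Tcap, telethonin, which caps the titin ends at the Z-disc, read 14.75, 14.14, 15.03 and 14.03 on the LPS arrays, against 14.99, 14.79, 15.00 and 15.18 on the saline arrays. LPS 2 and LPS 4 were low, and LPS 3 lay at the saline level. Its change was -0.50 with a standard error of 0.22 (adjusted p = 0.144), and it passed without LPS 3 (adjusted p = 0.0303).

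The core cross-linker Actn2, alpha-actinin, ranged from 14.38 to 14.63 on the LPS arrays, against 14.36 to 14.70 on the saline arrays, a change of -0.06 (95% interval -0.33 to 0.21). The groups covered nearly the same range. The changes of Ldb3, a PDZ and LIM protein that binds alpha-actinin, and of Nexn, an actin-binding Z-disc protein, were both -0.24, and the second Nexn probe gave -0.25. Myoz2, which binds calcineurin at the Z-disc, had a change of -0.13 (95% interval -0.59 to 0.32). None of these 4 genes passed the threshold.

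Around the Z-disc 4 of 5 genes were measured and Cryab passed. Cryab encodes alpha-B crystallin, a small heat shock protein that protects desmin and titin. It read 14.59, 13.54, 13.49 and 13.79 on the LPS arrays, against 14.21, 14.80, 15.07 and 15.08 on the saline arrays. LPS 1 stood above saline 1, and the other LPS arrays were below all saline arrays. The mean was 13.85 ± 0.51 in LPS hearts and 14.79 ± 0.41 in saline hearts (SD, n = 4 each), a log2 change of -0.94 with a standard error of 0.27 (limma adjusted p = 0.0357).

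The Cryab change depended on the pixel summary. With the mean pixel it was 0.04 (adjusted p = 0.836), and the values were 14.80, 14.98, 14.90 and 15.01 on the LPS arrays, against 14.51, 14.90, 15.07 and 15.05 on the saline arrays. With the mean pixel and saturated medians left out, the change stayed negative and did not pass. The mean-to-median ratio of its spot was 1.05, 2.80, 2.99 and 2.68 on the LPS arrays and 1.01, 1.03, 1.09 and 1.03 on the saline arrays, so the arrays that were low by the median were those with uneven spots. The call held without LPS 1 and without saline 1 and ended without any of the other 6 arrays (adjusted p = 0.0685 to 0.101). With scan day as a block the change was -1.10 (adjusted p = 0.0228). Within the first scan day, where group and slide series coincide, it was -1.47 (adjusted p = 0.00850). With the slide series as a block it was -0.21 (adjusted p = 0.752).

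**Figure D3:**
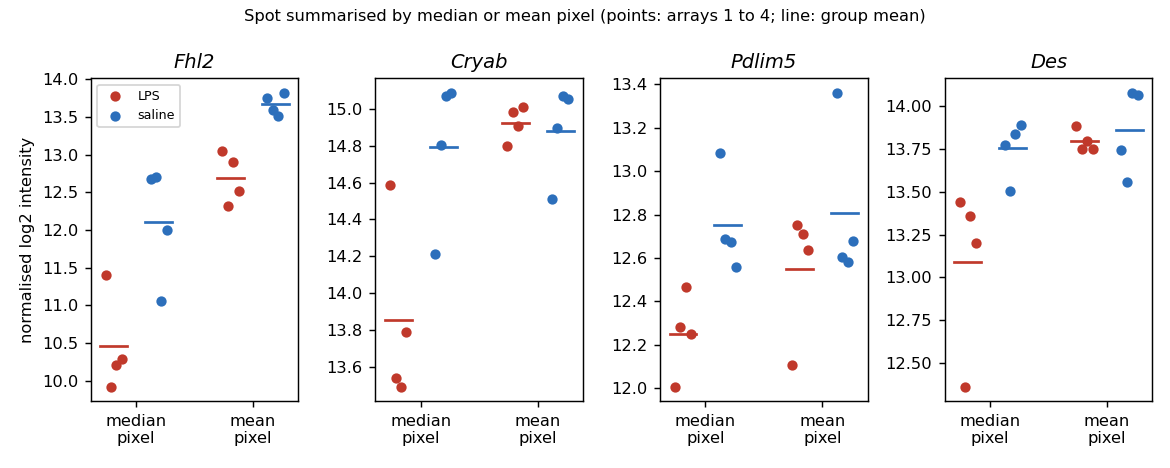
Normalised log2 intensity (vertical axes, each with its own range) of Fhl2, Cryab, Pdlim5 and Des with each spot summarised by its median or its mean pixel. Points are arrays, LPS in red left of saline in blue, and lines are group means. With the mean pixel Fhl2 separates fully (change -0.97), while the Cryab groups meet (change 0.04) and those of Des overlap (change -0.07).

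Des, desmin, read 13.44, 12.36, 13.36 and 13.20 on the LPS arrays, against 13.77, 13.51, 13.84 and 13.89 on the saline arrays. All LPS arrays were below all saline arrays, with LPS 2 far below the others. The change was -0.66 with a standard error of 0.22 (limma adjusted p = 0.0664), and -0.07 with the mean pixel (adjusted p = 0.722). Cmya5, myospryn, which binds desmin and alpha-actinin, read 12.56, 12.73, 13.46 and 12.96 on the LPS arrays, against 13.43, 12.97, 13.53 and 13.92 on the saline arrays. LPS 3 stood above saline 1 and saline 2, and the other LPS arrays lay below all saline arrays. Its change was -0.53 with a standard error of 0.23 (adjusted p = 0.145), -0.22 by a second probe, and -0.37 with the mean pixel, which passed (adjusted p = 0.0237). Nrap, an adaptor that links actin to the intercalated disc, was the 1 gene with a positive change, 0.01 (95% interval -0.42 to 0.43).

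Genes outside the 31 that act beside them were read from the same fit. Of 31 other sarcomere and Z-disc genes tested, 6 rose and 4 fell, with a median change of 0.07, beside the backgrounds of 9.74% higher and 9.77% lower. Ankrd2, a titin-binding ankyrin-repeat protein typical of slow skeletal muscle, read 11.73, 10.37, 7.55 and 10.85 on the LPS arrays, against 6.54, 6.40, 6.38 and 6.35 on the saline arrays. LPS 3, the LPS array nearest saline over all tested genes, was much lower than the other LPS arrays and still above all saline arrays. Only 1 saline array was above background. The gene entered the test through its LPS arrays, so the fitted change of 3.71 is set against values near the floor and is no exact size. Its relative Ankrd23 rose by 1.30, and Csrp1, the LIM protein of smooth muscle and other cells, rose to 11.56 ± 0.54 in LPS hearts, against 10.16 ± 0.38 in saline hearts (SD, n = 4 each). Pdlim7, another PDZ and LIM protein, rose by 1.19, but its second probe gave -0.78 and the mean pixel -0.12. The lower genes were Ky, a muscle protease of the Z-disc (-2.38), Synpo2 (-0.86), Tmod4 (-0.73) and Obsl1 (-0.56), and Ky was above background on 1 LPS array and all saline arrays, so its change is no exact size either. Tpm3 (0.96) and Lrrc10 (0.63) were the remaining rises, named after their values were seen. So was Myh7, beta-myosin heavy chain, with a change of 0.00 and a standard error of 0.51 by its brightest probe and -0.42 by a second probe.

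Among 35 genes of the costamere and desmin anchorage, which fix the Z-disc to the cell membrane, 2 rose (background 9.74%) and 4 fell (background 9.77%), with a median of -0.20. Sptbn1, a beta-spectrin of the membrane skeleton, fell by 1.14 on the log2 scale by its brightest probe, and its 6 tested probes ranged from -1.14 to -0.14. Lims2, an adaptor of integrin-linked kinase, fell by 1.13. Lama2, a laminin chain of the muscle basement membrane, fell by 0.93 and Sync, a desmin-binding filament protein, by 0.60. Dtna, a dystrobrevin of the dystrophin complex, rose by 0.67, its 4 tested probes ranging from 0.13 to 0.92, and Sntb2, a syntrophin of the same complex, by 0.64. Lims2 read 10.13, 10.38, 10.44 and 9.73 on the LPS arrays, against 11.25, 11.35, 11.47 and 11.15 on the saline arrays. These groups were well apart on every array (limma adjusted p = 0.00149).

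Of 16 transcription factors of heart muscle, 1 rose (background 9.74%) and 3 fell (background 9.77%), with a median of -0.10. Irx4, a homeobox factor of the ventricle, read 7.63, 7.21, 7.47 and 7.62 on the LPS arrays, against 8.68, 8.85, 8.74 and 8.86 on the saline arrays. Its groups were far apart on every array, with a change of -1.30 with a standard error of 0.13 (limma adjusted p = 0.000151). Nkx2-5 and Gata4, which drive many sarcomere genes in development, fell by 1.29 and 0.74. Hand2, a basic helix-loop-helix factor, rose by 0.89. Among 20 chaperones and turnover genes, 2 rose and 1 fell, beside the same backgrounds. Hspb1, a small heat shock protein, rose by 0.88 and Fbxo32, a muscle ubiquitin ligase, by 1.62, or 0.98 by its second probe. Cavin4, a caveolar protein of muscle, fell by 1.16.

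The calls of Ankrd2, Csrp1, Gata4, Hand2, Hspb1, Irx4, Ky, Lama2, Lims2, Nkx2-5, Obsl1, Pdlim7, Sptbn1 and Sync held without any single array. Those of Ankrd23 ended without LPS 2, saline 1 or saline 2 (adjusted p up to 0.0793), of Cavin4 without LPS 2 or saline 2 (up to 0.0660), and of Fbxo32 when LPS 2, LPS 4, saline 1 or saline 2 was left out (up to 0.0532). The calls of Tmod4 and Tpm3 ended when any array but LPS 3 or saline 1 was left out. The exceptions were LPS 3 or saline 2 for Synpo2, LPS 3 or saline 3 for Dtna, LPS 3 or LPS 4 for Sntb2, and LPS 2, LPS 3 or saline 1 for Lrrc10. The highest adjusted p of these 6 was 0.125, for Synpo2.

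Blocks and batches ended more of these 23 calls. With slide series as a block 12 ended, those of Cavin4, Dtna, Fbxo32, Hand2, Lama2, Lrrc10, Obsl1, Sptbn1, Sync, Synpo2, Tmod4 and Tpm3. With scan day as a block those of Ankrd23, Dtna and Synpo2 ended. Within the first scan day 3 calls were kept, those of Fbxo32, Irx4 and Ky, and median scaling over all gene probes ended 9, all of them rises.

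**Figure D4:**
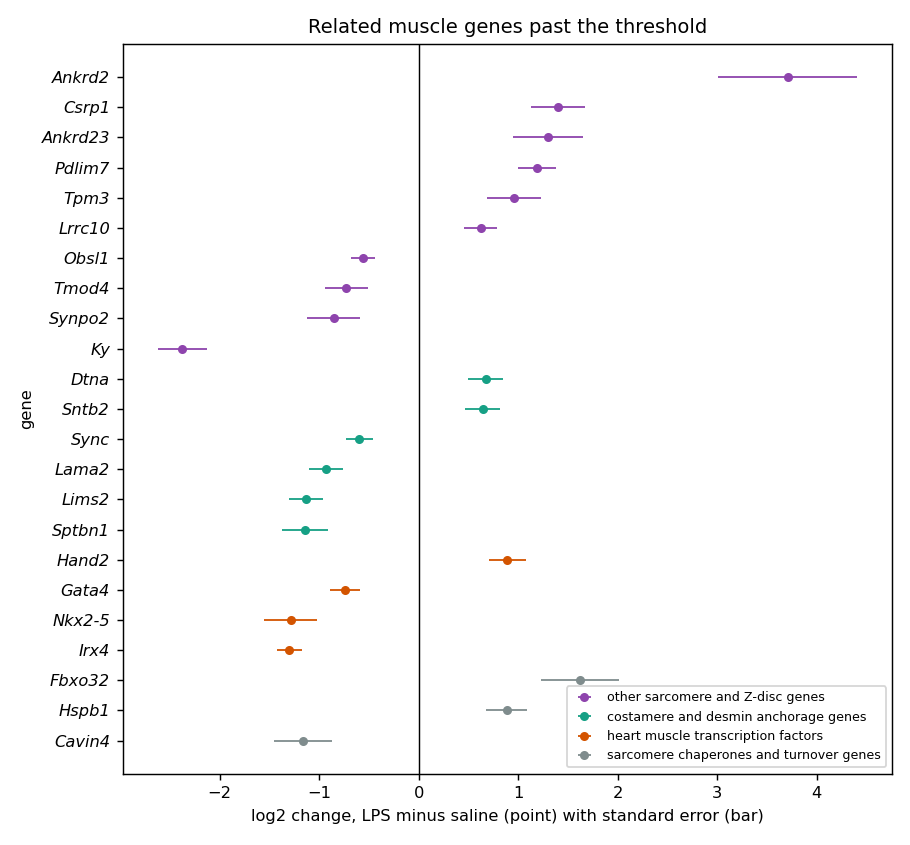
Log2 change of LPS minus saline (horizontal axis, points with standard errors, n = 4 mice per group) for the 23 called genes of the 4 related lists. Ankrd2 and Ky stand at the ends, each with most arrays of its low group at background, so that their sizes are not exact, and Irx4 lies at -1.30 and Nkx2-5 at -1.29 among the transcription factors.

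The labelled tissue was checked against marker genes. Cardiomyocyte genes outside the sarcomere were all measured (12 of 12), 11 of their changes were negative and their median was -0.38, beside -0.42 for the 25 genes. Ckm, muscle creatine kinase, was the 1 called lower (-0.48, limma adjusted p = 0.0464), a call that ended without any array but LPS 3 (adjusted p up to 0.129). Their summed normalised intensity was 250685 to 273786 on the LPS arrays, against 290706 to 319202 on the saline arrays.

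Other cell types differed between arrays, and the counts of called markers stand beside backgrounds of 9.74% higher and 9.77% lower. The sum over 4 of 7 atrial markers was 61663, 56892, 50902 and 441 on the LPS arrays, against 78197, 506, 3068 and 20278 on the saline arrays, so each group mixed hearts with much and with little atrial signal. Sln and Bmp10 were dim and Nppa matched no probe. The sum over 5 of 10 neutrophil markers was 1796 to 2392 on the LPS arrays, against 360 to 858 on the saline arrays, and 4 of the 5 were called higher. Endothelial markers were lower in 3 of 10 genes, with sums of 7801 to 12579 on the LPS arrays, against 12835 to 16605 on the saline arrays. Smooth muscle and pericyte markers were lower in 4 of 7 genes, with sums of 4487 to 6623 on the LPS arrays, against 7162 to 10007 on the saline arrays. Of the skeletal muscle markers, Myh1, Myh2 and Myh4 matched no probe, and Tnnt3, Actn3 and Myl1 were too dim to be tested. The 5 tested summed to 16579 to 24004 on the LPS arrays, against 26813 to 29733 on the saline arrays, 4 changes were negative and 1 was called lower (Ckm, which heart muscle also expresses). Of 8 fibroblast markers 1 was higher and 3 were lower, of 6 macrophage and monocyte markers 2 were lower, and of 3 erythroid markers none passed. With the atrial level as a covariate, the change of Fhl2 was -1.69 (limma adjusted p = 0.0265). Under it Cryab, at -0.91 (adjusted p = 0.0582), and Pdlim5, at -0.52 (adjusted p = 0.0511), did not pass, while Myh6 did. The part of the other cell types in the changes of the sarcomere genes was not tested.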

How the data were processed

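Heart RNA was measured on 8 arrays, 1 per mouse, 4 given LPS and 4 given saline by the labels. Per the file headers, the deposited scanner files give the intensity of each spot and of its surround at 635 nm, exported by GenePix Pro 4.1.1.4 (gain 650, pixels of 5 µm) with no normalization. The deposited value table was not used here, since its identifiers matched no scanner probe. How the authors made it is not given in the sources.

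Median spot intensity was corrected by normexp with an offset of 50, which shrinks changes of dim probes, taken to log2 and quantile normalised with limma 3.58.1 in R 4.3.3. Spots marked bad were missing. Of 35078 gene probes, 23071 matched 1 gene through their accession and 12007 matched none. Probes above the 95th percentile of 94 negative-control spots on at least 4 arrays were kept (14914), and the brightest stood for its gene. Groups were compared with lmFit and eBayes of limma, adjusted by Benjamini-Hochberg over 8875 genes and 3225 unnamed probes at a threshold of 0.05. The prior gave 4.13 of 10.13 degrees of freedom, and the number of arrays limits the precision. The procedure was tested on simulated data.

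The genes and lists were chosen with earlier results of these data known, so no test over a list was made. Values are given per array for genes that pass the threshold, do not overlap between groups, change by 0.5 or more, have a saturated spot or have probes that disagree. Related lists are given by their called genes, up to 4 in each direction, and markers by counts and ranges. Alternatives covered background correction, offset, pixel summary, normalization, dim-probe filter, probe choice, saturated spots, prior, scan day, slide series, the redip mark of the scan names, a replicate block, an exact permutation test and each array left out. The atrial covariate, LPS 1 alone against saline, and the mean pixel without saturated medians were added after seeing the data. Promoter windows are RefSeq's on GRCm38.p6.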

Additional observations from a re-analysis of the deposited data

Results flagged for a closer look

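In 50 groups of 4 arrays, the array farthest from the rest was set against the range of its group, and 2 exceeded the 95% critical ratio for 4 arrays, where chance gives about 1 in 20. Mybpc3 stood out on saline 1, at 16 against 15.20 to 15.30 on the other saline arrays, a gap of 0.873 of the range, and that spot was saturated. Ldb3 stood out on LPS 3, at 11.27 against 10.66 to 10.75 on the other LPS arrays, a gap of 0.849 of the range.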

How the results depend on the processing

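The number of genes called was 1731. It was 445 within the first scan day, 759 with the slide series as a block and 72 within the 4 arrays without the redip mark, against 1289 within the 4 with it. Of the 23 related genes called, 0 passed without that mark and 17 with it. With 1 array left out it ran from 1104 (without LPS 2) to 2.0e+03, rounded (without LPS 3), and it was 1143 without saline 2. The number of sarcomere genes called lower was 3, and the share of all named genes called lower (9.77% here) is in brackets below. It was 1 with cyclic loess (7.5%) and within the first scan day (1.76%). It was 0 with no filter on dim probes (4.96%, more genes tested), with the slide series as a block (3.03%) and without the redip mark (0.0338%). It was 5 with the mark (6.94%) and 5 by an exact permutation test (unadjusted p = 0.0286, the smallest that 70 splits can give). That test passes only genes whose groups do not overlap, and 12.3% of all named genes had all LPS arrays below all saline arrays. With 1 array left out the number of sarcomere genes called lower was 0 to 5. It was 0 without LPS 2 (5.44%), LPS 4 (5.58%) or saline 2 (5.84%) and 1 without saline 1 (6.94%). It was 4 without LPS 1 (7.62%) and 5 without LPS 3 (11.9%). The number called higher was 0 in every setting run. The median change of the 25 genes was -0.42. It was -0.15 with the mean pixel, -0.25 with cyclic loess, -0.21 with the slide series as a block and -0.71 with median scaling over all probes, which moved the median of all genes to -0.35. It was -0.46 to -0.35 with 1 array left out. The cause of these moves was not tested. Among called genes the sign turned with the mean pixel for Cryab, to 0.0416, and for Pdlim7, -0.12, also -0.12 with saturated medians left out. Of the sarcomere genes, 3 turned sign with the mean pixel, 0 with the mean pixel and saturated medians left out (median change -0.28), and 6 with slide series blocked. Deviations of same-numbered mice were at most weakly correlated (-0.14 to 0.09), and for LPS 1 and LPS 3 the same-numbered saline array was the closest. The redip mark followed the replicate number in both groups. Whether the replicate numbers paired the mice cannot be told from so few arrays. With the replicate block 1526 genes were called, and Fhl2, Csrp3 and Des were the 3 sarcomere genes called lower. Bright probes are limited by saturation, met by 7 to 21 gene probes on the LPS arrays, against 10 to 47 on the saline arrays, and dim ones by a negative-control limit of 25.9 to 40.5 intensity units.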
